A study of Homo sapiens with 6 samples.

Results

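The S100 genes encode small calcium-binding proteins. A group of 10 of them was followed in HCT116 colorectal cancer cells after PLOD3 siRNA: S100A2, S100A3, S100A4, S100A6, S100A10, S100A11, S100A13, S100A14, S100A16 and S100P. Each was taken as the row of the deposited table that carries its symbol, 10 of 60612 genes in all, and 9 of the 10 passed a filter on low values that kept 12000 genes. HCT116 is an established human colorectal carcinoma line. Cultures in DMEM with 10% serum, at 37 °C and 5% CO2, received PLOD3 siRNA or the control si NC for 2 days, with 3 samples in each group. The labels do not state whether the 3 samples per group came from separate cultures, and the p-values therefore describe the variation among these 6 samples, part of which may be technical. The title of the series names the effect of PLOD3 on colorectal cancer progression as its question.

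S100 proteins carry a pair of EF-hands, the helix-loop-helix folds that hold calcium, and mostly work as dimers without enzyme activity of their own. On binding calcium they expose a surface that grips target proteins such as annexins, myosin and co-chaperones, and several are also released from cells and bind the receptor RAGE. Most of their genes lie side by side on the long arm of chromosome 1, and S100A4 and S100P in particular are known for links with spread of colorectal and other carcinomas. PLOD3 encodes a lysyl hydroxylase that modifies collagen in the endoplasmic reticulum.

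PLOD3 itself, the gene targeted by the siRNA, had 3.44, 3.40 and 4.05 FPKM (fragments per kilobase of transcript and mapped library size, as deposited) in the PLOD3 siRNA samples, against 6.40, 7.16 and 6.22 FPKM in the si NC samples. Its log2 fold change was −0.85 (SE 0.11, edgeR adjusted p = 0.0035), and lay between −0.92 and −0.54 over 18 alternatives. Total estimated counts ran from 55416555 to 71736017 in PLOD3 siRNA and from 57457602 to 76802428 in si NC. The colorectal epithelial markers were all present (8 of 8 at a mean of at least 1 FPKM, led by KRT19 at 253 FPKM), with a summed level of 603 to 685 FPKM in PLOD3 siRNA and 726 to 773 FPKM in si NC; the part of that difference in the S100 values was not tested. Markers of other cells were near 0: endothelial markers summed to 0.152 to 0.171 FPKM in PLOD3 siRNA and 0.112 to 0.315 FPKM in si NC, and leukocyte markers to 1.68 to 1.99 FPKM in PLOD3 siRNA and 1.09 to 2.13 FPKM in si NC.

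Of the 9 S100 genes tested, S100A4, S100A3 and S100A11 were lower in PLOD3 siRNA cells than in si NC cells, none passed the test as higher, and 6 did not pass it. S100A4 was at 52.1%, S100A3 at 57.9% and S100A11 at 81.7% of its si NC mean. A gene counts as lower or higher where the adjusted p of edgeR's quasi-likelihood test was under 0.05, with Benjamini-Hochberg adjustment over all 12000 genes. By that rule 19.3% of all genes tested were lower and 16.2% were higher, against 3 of 9 S100 genes lower and 0 of 9 higher. At an unadjusted p under 0.05, 4 S100 genes were lower (S100A14 in addition) and 1 was higher (S100A2), against 24.6% lower and 22.6% higher over all genes tested. DESeq2 also called S100A2 higher, with 19.7% of its tested genes higher. With 9 genes, 1 gene more or less moves such a share widely. The median log2 fold change was −0.21 over the 9 S100 genes and 0.00 over all genes tested. On a TPM scale (FPKM brought to the same sum in every sample) the split over all genes moved to 1461 lower and 2470 higher, against 2319 lower and 1945 higher in the test used throughout. In bulk RNA, fewer cells that express a gene and less of its RNA per cell cannot be told apart.

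Read sample by sample, 4 S100 genes (S100A3, S100A4, S100A11 and S100A14) had their highest PLOD3 siRNA value below their lowest si NC value, and 1, S100A2, had its lowest PLOD3 siRNA value above its highest si NC value. Over all genes tested, 27.5% were separated in this way with PLOD3 siRNA lower and 24.6% with PLOD3 siRNA higher. The other 4 tested S100 genes overlapped between the groups.

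**Figure D1:**
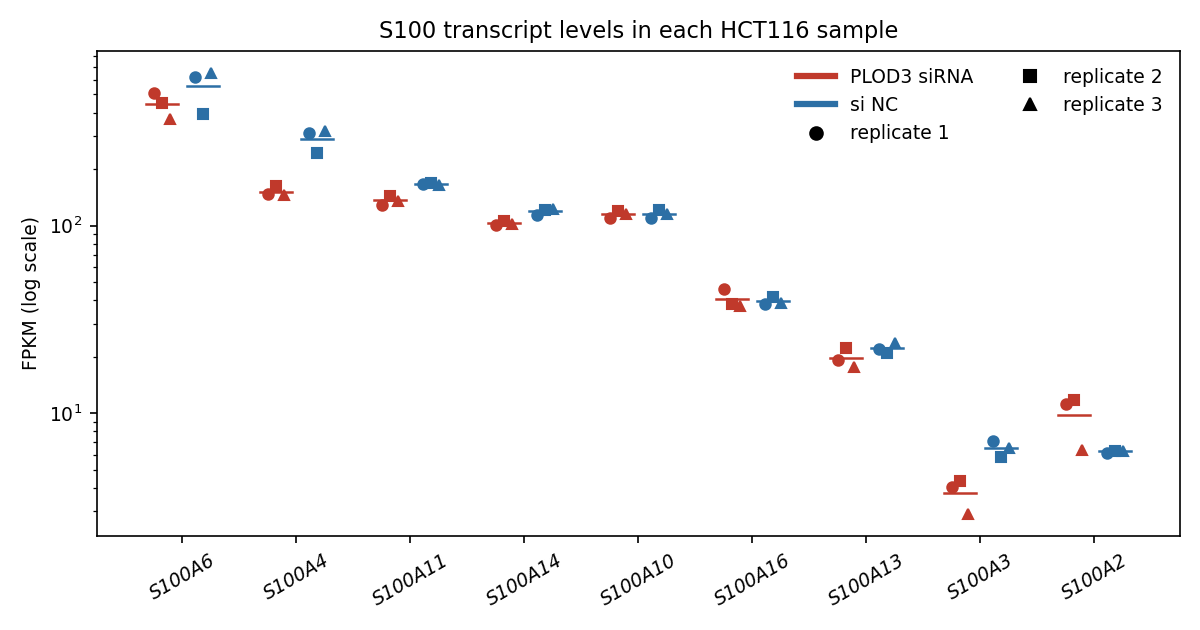
FPKM (log scale) of the 9 S100 genes tested in each sample, PLOD3 siRNA in red and si NC in blue, with a point per sample (n = 3 per group), a shape per replicate number and a bar at each group mean. S100A4 lies at 145 to 163 FPKM in PLOD3 siRNA and 244 to 318 FPKM in si NC, while S100A10 lies on top of itself.

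The plot of levels by sample shows how far the S100 genes spread in level. In PLOD3 siRNA cells the order by mean was S100A6 (443 FPKM), S100A4 (151.6), S100A11 (136), S100A10 (115), S100A14 (102.6), S100A16 (40.5), S100A13 (19.7), S100A2 (9.75) and S100A3 (3.75), and no neighbours in this order overlapped between samples. In si NC cells S100A6 (555 FPKM) and S100A4 (291) again led, followed by S100A11 (166), S100A14 (119), S100A10 (115), S100A16 (39.4), S100A13 (22.2), S100A3 (6.48) and S100A2 (6.26). There the neighbours S100A14 and S100A10 overlapped, as did S100A3 and S100A2. S100A6 ranked 56th and S100A4 127th of all genes in the table by mean FPKM over the 6 samples.

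S100A4 binds non-muscle myosin heavy chain and is best known as a promoter of cell motility. In the table's coordinates (read as GRCh38) the gene (ENSG00000196154) spans 153543613 to 153550136 on the minus strand of chromosome 1. It had 147, 163 and 145 FPKM in the PLOD3 siRNA samples, against 311, 244 and 318 FPKM in the si NC samples. All PLOD3 siRNA samples were thus below all si NC samples, and the lowest si NC sample was the second. The means were 151.6 ± 9.90 FPKM in PLOD3 siRNA and 291 ± 40.9 FPKM in si NC (SD, n = 3 each). S100A4 fell by 0.93 on the log2 scale (SE 0.12, 95% interval −1.22 to −0.64, edgeR adjusted p = 0.0037), and 3.06% of the genes tested had a lower fold change. Its estimated counts were 8842 to 11788 in PLOD3 siRNA and 17694 to 26966 in si NC, and the call held under all 19 alternatives, between −1.08 and −0.83. Of these, 1 added the few S100A3 reads and was chosen after seeing the data, so it nearly repeats the main fit. S100A4 is also used as a fibroblast marker. Of 8 other fibroblast markers 1 reached a mean of 1 FPKM (COL1A1, 2.00 FPKM) and DCN, LUM and FAP were listed at 0 in every sample. Their summed level was 1.48 to 1.91 FPKM in PLOD3 siRNA and 2.64 to 2.76 FPKM in si NC.

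S100A3 encodes a cysteine-rich, zinc-binding S100 protein best known from the hair follicle. The gene (ENSG00000188015, chromosome 1, 153547329 to 153549258, minus strand) lies wholly within the annotated span of S100A4 on the same strand, and the pair share 0 exonic bases in GENCODE release 29. It had 4.02, 4.34 and 2.90 FPKM in the PLOD3 siRNA samples, against 7.08, 5.83 and 6.54 FPKM in the si NC samples. The groups did not overlap. S100A3 fell by 0.77 on the log2 scale (SE 0.19, 95% interval −1.24 to −0.31, edgeR adjusted p = 0.0244), on counts of 159 to 287 in PLOD3 siRNA and 376 to 494 in si NC. The call was lost with a correction for GC content (adjusted p = 0.1005), and without PLOD3 siRNA sample 1 (0.0621), si NC sample 1 (0.065) or si NC sample 3 (0.0713). With reads of S100A3 and S100A4 summed, an alternative chosen after seeing the data, the log2 fold change was −0.93 (edgeR adjusted p = 0.0037). S100A4 supplied most of those reads, so this fit gives no information on S100A3 alone. S100A3 was present at 0.0274, 0.0266 and 0.0200 of the S100A4 FPKM in PLOD3 siRNA, and at 0.0228, 0.0239 and 0.0205 in si NC. These ratios overlapped between the groups (two-sided exact permutation p = 0.5).

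S100A11 is a partner of annexin A1 at membranes and in the cell cortex. Its gene (ENSG00000163191) lies at 152032506 to 152047907 on the minus strand of chromosome 1, apart from the dense part of the cluster. It had 129, 144 and 135 FPKM in the PLOD3 siRNA samples, against 167, 168 and 165 FPKM in the si NC samples. The si NC samples lay within a narrow band (166 ± 1.72 FPKM, SD, n = 3), with all PLOD3 siRNA samples below it. S100A11 fell by 0.28 on the log2 scale (SE 0.08, 95% interval −0.48 to −0.09, edgeR adjusted p = 0.0339). The call was lost in 10 of 18 alternatives, among them no filter on low values (0.0887), a TPM scale (0.0858) and the GC correction (0.1432). It was also lost without PLOD3 siRNA sample 1 (0.1118) or 3 (0.0823), or without si NC sample 1 (0.0632), 2 (0.0881) or 3 (0.0988). The table lists 13 S100A11 pseudogenes, and the highest value among them was 0.0393 FPKM, so reads assigned to these copies were few.

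The S100 genes tested had a median GC content of 55.7% and a median transcript length of 856 nucleotides, against 49.1% and 3019 nucleotides over all genes tested. With the GC correction 1 S100 gene, S100A4, passed as lower; with a correction for GC content and length together 4 did, S100A14 being the fourth. Over all genes tested 14.5% were lower with the GC correction and 13.1% with the correction for GC content and length.

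Upstream sequences were set side by side for the neighbours S100A6, S100A4 and S100A3, of which S100A4 and S100A3 fell, and for S100A11 and S100A10, both partners of annexins, of which S100A11 fell. Each runs 5′ to 3′ on the gene's strand, from 250 bases before to 50 bases after the start that RefSeq gives (GRCh38.p14). All are on the minus strand, at chr1:153535942-153536241 for S100A6, chr1:153545757-153546056 for S100A4, chr1:153549209-153549508 for S100A3, chr1:152036955-152037254 for S100A11 and chr1:151993810-151994109 for S100A10. Capitals mark matches to the TATA box (TATAA), the Sp1 site (GGGCGG) or the AP-1 site (TGANTCA), searched on both strands.
S100A6: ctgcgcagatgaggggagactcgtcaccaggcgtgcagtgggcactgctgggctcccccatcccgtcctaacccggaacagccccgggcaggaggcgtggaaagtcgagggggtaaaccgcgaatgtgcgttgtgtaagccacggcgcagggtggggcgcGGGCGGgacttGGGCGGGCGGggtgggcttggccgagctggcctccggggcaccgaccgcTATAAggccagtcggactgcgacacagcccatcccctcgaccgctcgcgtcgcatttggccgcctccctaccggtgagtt
S100A4: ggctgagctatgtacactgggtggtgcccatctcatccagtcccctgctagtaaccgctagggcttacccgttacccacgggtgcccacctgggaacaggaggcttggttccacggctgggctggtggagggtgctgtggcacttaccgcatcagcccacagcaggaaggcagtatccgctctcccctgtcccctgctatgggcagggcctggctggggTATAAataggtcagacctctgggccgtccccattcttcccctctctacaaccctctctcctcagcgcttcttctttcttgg
S100A3: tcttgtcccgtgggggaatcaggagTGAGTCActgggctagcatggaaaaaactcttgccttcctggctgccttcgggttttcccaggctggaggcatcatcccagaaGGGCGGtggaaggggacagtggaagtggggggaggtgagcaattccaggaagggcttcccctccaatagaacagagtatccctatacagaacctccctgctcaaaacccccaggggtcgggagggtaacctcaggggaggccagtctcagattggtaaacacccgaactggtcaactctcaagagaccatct
S100A11: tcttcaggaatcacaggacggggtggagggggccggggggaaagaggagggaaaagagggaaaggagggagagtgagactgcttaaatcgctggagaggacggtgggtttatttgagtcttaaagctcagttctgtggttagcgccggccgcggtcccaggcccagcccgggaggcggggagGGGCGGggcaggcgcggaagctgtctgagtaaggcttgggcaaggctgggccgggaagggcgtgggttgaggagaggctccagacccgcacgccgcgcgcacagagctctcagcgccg
S100A10: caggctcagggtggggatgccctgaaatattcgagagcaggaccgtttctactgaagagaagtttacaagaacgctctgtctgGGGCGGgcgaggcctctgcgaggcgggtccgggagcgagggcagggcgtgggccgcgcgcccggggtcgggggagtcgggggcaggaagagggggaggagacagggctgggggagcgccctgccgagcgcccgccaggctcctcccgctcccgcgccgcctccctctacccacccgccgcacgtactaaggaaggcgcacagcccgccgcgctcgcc

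S100A4 and S100A6 each hold TATAA, with its first base at −31 in S100A4 and −30 in S100A6 relative to the start, and the S100A3 window holds none. S100A6 has 3 matches to GGGCGG, at −90, −79 and −75, and those at −79 and −75 overlap. In S100A3 there is GGGCGG at −142 and TGANTCA at −225. S100A11 holds GGGCGG at −68, and S100A10 holds it at −167. RefSeq gave 14 such windows for the 10 S100 genes. Of these 5 hold TATAA, against 20.4% of 35116 windows of the same length over all genes. GGGCGG was in 6 of the 14 (45.0% of all windows), TGANTCA in 2 (7.71%), and the TCF site CTTTGNT in 0 (15.4%). S100A4 is known as a target of Wnt signalling through TCF, and the absence of these letters from this window says nothing about that factor. No motif searched was in the windows of all 3 genes that fell, and GGGCGG was in those of S100A3 and S100A11.

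**Figure D2:**
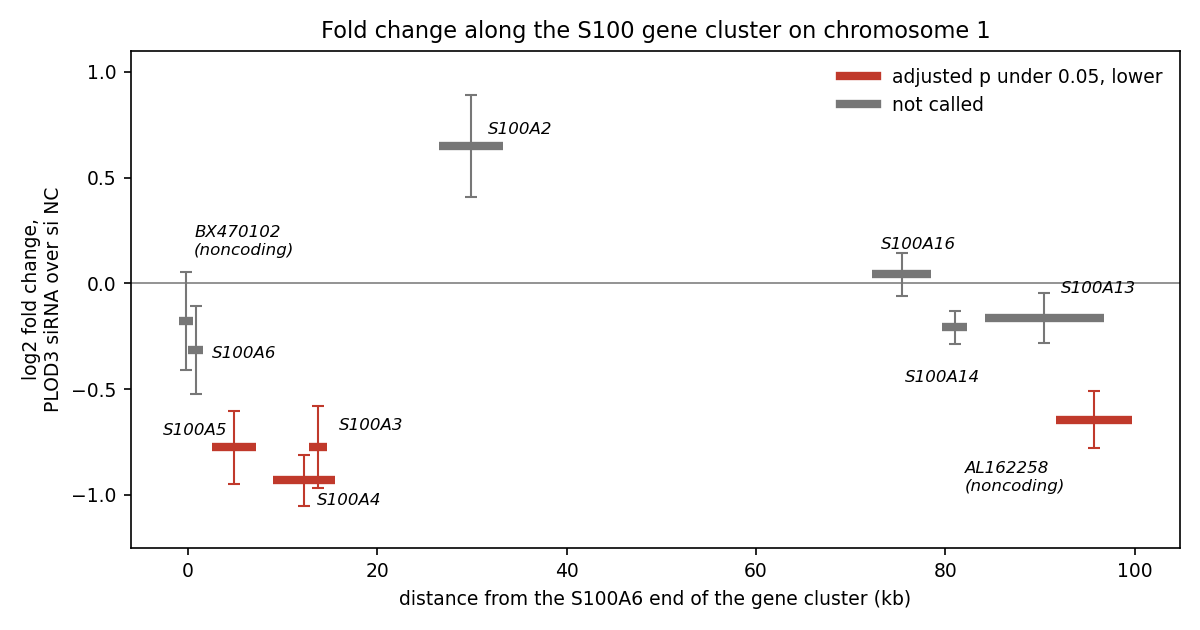
Log2 fold change (PLOD3 siRNA over si NC) of the tested genes along the S100 cluster on chromosome 1, against distance in kb from its S100A6 end. Each horizontal bar spans a gene, vertical bars are ± 1 SE, and red marks genes that passed the test as lower; S100A5, S100A4 and S100A3 lie next to each other at −0.77 to −0.93.

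Position in the genome was shared by most of the S100 genes. All except S100P, which is on chromosome 4, lie on the minus strand of chromosome 1 within 1.65 Mb, and 7 of them, from S100A6 to S100A13, lie within 96.8 kb. The plot along the cluster shows S100A4 and S100A3 beside S100A5, a further family member that is not among the 10. S100A5 had 3.31, 3.44 and 2.75 FPKM in PLOD3 siRNA, against 4.88, 6.02 and 5.41 FPKM in si NC, with no overlap. S100A5 fell by 0.77 on the log2 scale (SE 0.17, edgeR adjusted p = 0.0167), and the call was lost without PLOD3 siRNA sample 1 (0.0508) or si NC sample 3 (0.0537). It was also lost with a replicate block and the GC correction together (0.0536). The genes on either side of these 3, S100A6 and S100A2, did not pass the test. Reads that run from 1 gene into the next were not tested.

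S100A6, or calcyclin, was the S100 gene with the highest level. It had 509, 449.8 and 371 FPKM in the PLOD3 siRNA samples, against 622, 391 and 652 FPKM in the si NC samples. The second si NC sample lay below 2 of the PLOD3 siRNA samples, so the groups overlapped. The gene shares 23 exonic bases with BX470102, a noncoding gene on the opposite strand that had 2.19 FPKM in PLOD3 siRNA and 2.50 FPKM in si NC on average. The log2 fold change of S100A6 was −0.31 (95% interval −0.82 to 0.19, edgeR adjusted p = 0.278), and −0.50 (0.0606) without si NC sample 2. It was −0.17 (0.6013) without si NC sample 3, −0.19 (0.5439) without PLOD3 siRNA sample 3 and −0.05 (0.8922) after the GC correction. S100A4 and S100A6 were both lowest, among the si NC samples, in sample 2. The ratio of S100A4 to S100A6 FPKM was 0.289, 0.362 and 0.390 in PLOD3 siRNA, against 0.4998, 0.624 and 0.488 in si NC, with no overlap (two-sided exact permutation p = 0.1, the smallest that 3 against 3 samples can give, and 0.125 adjusted over 5 ratios).

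S100A2, an epithelial S100 gene known as a p53 target, had the highest fold change of the 9 S100 genes tested. It had 11.2, 11.7 and 6.36 FPKM in the PLOD3 siRNA samples, against 6.16, 6.32 and 6.29 FPKM in the si NC samples. The groups did not overlap, but the third PLOD3 siRNA sample exceeded the highest si NC sample by a small margin. Its log2 fold change was 0.65 (SE 0.24, 95% interval 0.07 to 1.23 before adjustment, edgeR adjusted p = 0.0784), and 94.2% of the genes tested had a lower one. It passed the test with DESeq2 (0.0226) and without PLOD3 siRNA sample 3 (log2 fold change 0.89, 0.0090).

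S100A14 and S100A16 are neighbours whose proteins are known to bind each other. S100A14 had 100.4, 106.0 and 101.5 FPKM in the PLOD3 siRNA samples, against 114, 121 and 122 FPKM in the si NC samples. These groups did not overlap, and the difference missed the threshold (log2 fold change −0.21, 95% interval −0.39 to −0.03 before adjustment, edgeR adjusted p = 0.0743). It passed in 4 alternatives: a minimum mean of 5 FPKM (0.028), limma on log2(FPKM + 1) (0.042) and on log2(FPKM + 0.1) (0.0426), and the correction for GC content and length (0.0147). The log2 fold change of S100A14 was −0.09 (0.3337) after the GC correction and −0.11 (0.2565) on a TPM scale. S100A16 had 46.1, 38.2 and 37.2 FPKM in PLOD3 siRNA, against 38.01, 41.5 and 38.6 FPKM in si NC, and the groups overlapped. Its log2 fold change was 0.04 (95% interval −0.20 to 0.29, adjusted p = 0.770). S100A14 stood at 2.18, 2.77 and 2.73 times the S100A16 FPKM in PLOD3 siRNA, and at 3.00, 2.92 and 3.15 times in si NC (two-sided exact permutation p = 0.1, adjusted 0.125).

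S100A13 takes part in the release of FGF1 from cells together with synaptotagmin 1. It had 19.3, 22.2 and 17.7 FPKM in the PLOD3 siRNA samples, against 22.1, 20.96 and 23.7 FPKM in the si NC samples. The groups overlapped, with a log2 fold change of −0.16 (95% interval −0.44 to 0.12, edgeR adjusted p = 0.312). The gene shares 235 exonic bases with S100A1 on the opposite strand and 536 with the noncoding AL162258 (ENSG00000271853) on its own strand, so its reads may be split with theirs and its value is uncertain. AL162258 fell by 0.64 on the log2 scale (SE 0.13, adjusted p = 0.0134; 0.0521 without si NC sample 3). SYT1, which encodes synaptotagmin 1, had 8.73, 7.51 and 9.12 FPKM in PLOD3 siRNA, against 13.5, 10.99 and 12.3 FPKM in si NC, and fell by 0.53 (SE 0.09, adjusted p = 0.0074). FGF1 itself was near 0 and was not tested. It had 0, 0.0223 and 0.0117 FPKM in PLOD3 siRNA, against 0.0150, 0.0047 and 0.0052 FPKM in si NC.

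S100A10, also called p11, differs from the other members in that it is held in its active shape without calcium and forms a complex with annexin A2 at the cell membrane. It had 109.6, 120.03 and 115 FPKM in the PLOD3 siRNA samples, against 110.3, 120.4 and 115 FPKM in the si NC samples. The 2 sets of values lay on top of each other. Its log2 fold change was 0.00 (95% interval −0.20 to 0.21, edgeR adjusted p = 0.977). The partner ANXA2 had 133, 164 and 126 FPKM in PLOD3 siRNA, against 109, 109 and 107 FPKM in si NC. Those groups did not overlap, and ANXA2 missed the threshold (log2 fold change 0.39, SE 0.13, adjusted p = 0.0559), though it passed with DESeq2 (0.0190) and limma. Without PLOD3 siRNA sample 2 its log2 fold change was 0.24 (0.0498), without sample 3 it was 0.48 (0.0398), and after the GC and length correction 0.22 (0.1488). S100A10 stood at 0.823, 0.733 and 0.915 times the ANXA2 FPKM in PLOD3 siRNA, and at 1.008, 1.105 and 1.07 times in si NC (two-sided exact permutation p = 0.1, adjusted 0.125). AHNAK, the scaffold that the complex binds, had a log2 fold change of −0.15 (adjusted p = 0.288).

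**Figure D3:**
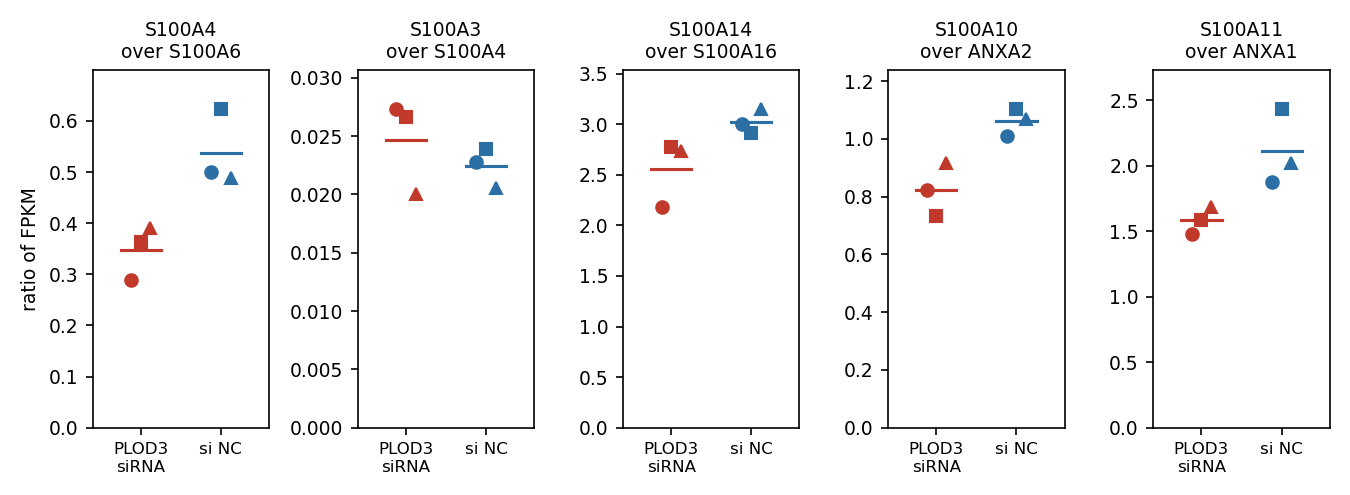
Ratio of FPKM within each sample for 5 pairs of genes, PLOD3 siRNA in red left of si NC in blue, with a point per sample, a shape per replicate number and a bar at each mean (n = 3 per group). All pairs except S100A3 over S100A4 are separated between the groups, with PLOD3 siRNA lower.

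The plot of ratios also holds S100A11 over ANXA1, which was 1.48, 1.59 and 1.68 in PLOD3 siRNA, against 1.88, 2.44 and 2.02 in si NC. These did not overlap (two-sided exact permutation p = 0.1, adjusted 0.125). ANXA1, which encodes annexin A1, did not pass the test (log2 fold change 0.12, edgeR adjusted p = 0.414). Of the 5 ratios computed, 4 were separated between the groups, and at this number of samples no ratio could give a p under 0.1. Each of these 4 pairs a gene separated by itself (S100A4, S100A14, S100A11 or ANXA2) with a gene that overlapped. They therefore largely restate the values of single genes. The share separated over other pairs of genes was not computed. Of single genes tested, 27.5% were separated with PLOD3 siRNA lower and 24.6% with it higher, which is no background for such pairs. The ratios carry no GC correction. GC content was 56.2% for S100A10 and 46.5% for ANXA2, and 54.2% for S100A11 and 39.3% for ANXA1. With the GC correction the log2 fold changes were 0.18 for S100A10, 0.33 for ANXA2 and −0.16 for S100A11. ANXA1 ran from −0.17 to 0.22 over its 18 alternatives. The part of GC content in the ratio of S100A11 to ANXA1 was not tested.

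S100P, a gene of the placenta and of many carcinomas, was at the edge of detection. It had 0.0932, 0.366 and 0 FPKM in the PLOD3 siRNA samples, on estimated counts of 4, 12 and 0, and was listed at 0 in all si NC samples. It did not pass the filter on low values and was not tested. EZR, which encodes the actin linker ezrin and binds S100P, had 398, 308 and 326 FPKM in PLOD3 siRNA, against 397, 409 and 404 FPKM in si NC, with overlap (log2 fold change −0.23, edgeR adjusted p = 0.127; −0.33 and 0.0465 without PLOD3 siRNA sample 1). IQGAP1, a further S100P partner, had a log2 fold change of 0.09 (adjusted p = 0.361).

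The table holds 11 other S100 genes, and S100A5 was the only one to pass the filter. S100A1, best known from heart muscle, had 0.604, 0.395 and 0.438 FPKM in PLOD3 siRNA, against 0.790, 0.706 and 0.761 FPKM in si NC. These values did not overlap but were too low to enter the test. S100A7 was listed at 0 in all PLOD3 siRNA samples and at 0, 0.303 and 0.253 FPKM in si NC. S100B and S100Z had reads in 1 si NC sample each, at 0.0262 and 0.0800 FPKM. The remaining 6, the calgranulins S100A8, S100A9 and S100A12 with S100G, S100A7A and S100A7L2, were listed at 0 in all samples.

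**Figure D4:**
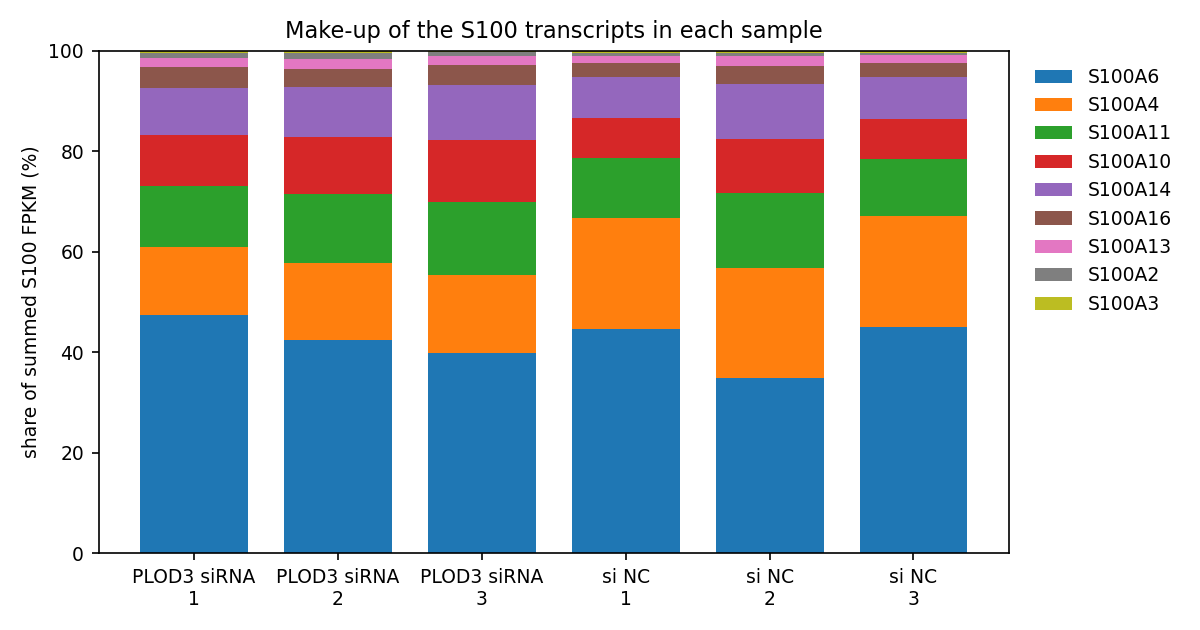
Share (%) of each S100 gene in the summed FPKM of the S100 genes, 1 bar per sample, PLOD3 siRNA left of si NC; S100P, at most 0.0345%, is not drawn. S100A4 takes 13.7 to 15.5% in PLOD3 siRNA and 21.8 to 22.3% in si NC.

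Summed over the 10 genes, S100 transcripts came to 1076, 1059 and 933 FPKM in the PLOD3 siRNA samples, against 1397, 1119 and 1447 FPKM in the si NC samples. The groups did not overlap (1022.6 ± 78.4 FPKM in PLOD3 siRNA and 1321 ± 176 FPKM in si NC, SD, n = 3 each, two-sided exact permutation p = 0.1). As a share of all FPKM in a sample the S100 sum was 0.301, 0.286 and 0.247% in PLOD3 siRNA, against 0.362, 0.280 and 0.358% in si NC. On that scale the groups overlapped, with si NC sample 2 below PLOD3 siRNA samples 1 and 2 (two-sided exact permutation p = 0.3). In the plot of shares, S100A4 made up 13.7, 15.4 and 15.5% of this sum in PLOD3 siRNA, and 22.3, 21.8 and 22.0% in si NC. Its share was close to constant among the si NC samples even where the sum was lowest, in sample 2. S100A6 made up 39.8 to 47.3% of the sum in PLOD3 siRNA and 34.9 to 45.1% in si NC, with overlap.

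Annexins, the calcium-dependent membrane proteins that many S100 dimers bridge, were listed as 13 genes, of which 10 were tested. In PLOD3 siRNA, 1 fell and 2 rose, against 19.3% lower and 16.2% higher over all genes tested, and their median log2 fold change was 0.07. ANXA6, a multi-repeat annexin of endosomes and the plasma membrane, had 15.7, 15.0 and 15.0 FPKM in PLOD3 siRNA, against 24.0, 22.4 and 23.1 FPKM in si NC. It fell by 0.60 on the log2 scale (SE 0.06, edgeR adjusted p = 0.0025) and kept its call in all 18 alternatives. ANXA3 rose by 0.38 (SE 0.09, adjusted p = 0.0216; 0.0599 without si NC sample 2 and 0.0634 without sample 3), with 0.18 and no call (0.0769) after the GC and length correction. ANXA7 rose by 0.25 (SE 0.06, adjusted p = 0.0276), a call lost in 10 of 18 alternatives, with 0.08 after the GC correction. ANXA11, which binds S100A6, had a log2 fold change of −0.23 (adjusted p = 0.0827).

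Other known binding partners of S100 proteins came to 26 genes, of which 20 were tested, with 5 lower, 6 higher and a median log2 fold change of −0.15. The background over all genes tested was 19.3% lower and 16.2% higher. MYH9, the myosin heavy chain bound by S100A4, had 35.2, 30.6 and 39.7 FPKM in PLOD3 siRNA, against 53.1, 55.3 and 52.6 FPKM in si NC. The groups did not overlap, and MYH9 fell by 0.61 on the log2 scale (SE 0.09, edgeR adjusted p = 0.0054). With the correction for GC content and length the value was −0.22 (0.0279). ERBB2, a receptor kinase to which S100A14 binds, fell by 0.57 (SE 0.08, adjusted p = 0.0052), with −0.20 and no call (0.0547) under that correction. RTN4, a reticulon of the endoplasmic reticulum, fell by 0.21 (SE 0.06, adjusted p = 0.0292). BSG, the surface protein basigin, fell by 0.35 (SE 0.11, adjusted p = 0.0439), a call lost in 11 of 18 alternatives, with −0.03 after the GC correction. RTN4 lost its call in 8 of the 18, among them each sample left out except PLOD3 siRNA sample 2. For BSG the call held without PLOD3 siRNA sample 1 and was lost without any other sample.

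The 6 partners that rose were CACYBP, STIP1, FKBP4, SUGT1, KPNA2 and MDM2. CACYBP, the calcyclin-binding protein that links S100A6 to ubiquitin ligases, had 33.1, 42.5 and 39.3 FPKM in PLOD3 siRNA, against 24.3, 27.3 and 20.6 FPKM in si NC. CACYBP rose by 0.68 on the log2 scale (SE 0.15, edgeR adjusted p = 0.0160), and by 0.42 without passing (0.129) after the GC correction. STIP1 and FKBP4, co-chaperones of the heat shock protein HSP90, rose by 0.37 (SE 0.06, adjusted p = 0.0059) and 0.43 (SE 0.07, adjusted p = 0.0057). SUGT1, a further co-chaperone and S100A6 partner, rose by 0.57 (SE 0.10, adjusted p = 0.0077). KPNA2, an importin, rose by 0.45 (SE 0.07, adjusted p = 0.0054). MDM2, the ubiquitin ligase of p53, rose by 0.47 (SE 0.12, adjusted p = 0.0225). The MDM2 call was lost after the GC correction (0.29, 0.0694) and without PLOD3 siRNA sample 1 (0.0717) or 3 (0.0599) or si NC sample 3 (0.0611). AGER, the gene of the receptor RAGE, was looked up after its values were seen: it had 1.38, 1.72 and 2.42 FPKM in PLOD3 siRNA, against 1.71, 2.39 and 1.80 FPKM in si NC, with overlap.

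EF-hand genes outside the S100 family numbered 52 in the list, and 38 were tested. Of these 12 fell and 6 rose, against the same 19.3% and 16.2% of all genes tested, with a median log2 fold change of −0.05. CALB2, the calcium buffer calretinin, had 1.08, 0.904 and 0.821 FPKM in PLOD3 siRNA, against 2.84, 2.71 and 2.84 FPKM in si NC, and fell by 1.56 on the log2 scale (SE 0.16, edgeR adjusted p = 0.0025). STIM1, the calcium sensor of the endoplasmic reticulum, fell by 0.94 (SE 0.11, adjusted p = 0.0029). NUCB1, a calcium-binding protein of the Golgi, fell by 0.80 (SE 0.08, adjusted p = 0.0026). CETN3, a centrin of the centrosome, rose by 0.77 (SE 0.09, adjusted p = 0.0029). After the GC correction NUCB1 stood at −0.53 and CETN3 at 0.41, both still called. Over 17 alternatives CALB2 ran from −1.66 to −0.97 and STIM1 from −0.99 to −0.58, and each kept its call. In PLOD3 siRNA both CALB2 and STIM1 lay near the filter of 1 FPKM, STIM1 at a mean of 1.16 FPKM.

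Other genes that lie on chromosome 1 between the first and the last of the S100 genes, or within 300 kb of either end, numbered 127, and 13 of them were expressed highly enough to be tested. In PLOD3 siRNA 3 of the 13 fell (S100A5, AL162258 and GATAD2B) and 0 rose by edgeR, with a median log2 fold change of −0.18. The share lower was 23.1%, near the 19.3% over all genes tested, of which 16.2% rose. At an unadjusted p under 0.05, 4 of the 13 were lower and 1 was higher, against 24.6% and 22.6% of all genes tested. On a TPM scale 2 neighbours were called higher, and DESeq2, the fit without a filter and the GC correction each called 1 higher. Over all genes, 2470 of 12000 were called higher on a TPM scale and 2355 of 11978 with DESeq2. Without a filter 1460 of 32482 were, and with the GC correction 1563 of 12000. GATAD2B, a subunit of the NuRD chromatin complex, had 6.59, 6.36 and 7.28 FPKM in PLOD3 siRNA, against 8.76, 9.08 and 9.14 FPKM in si NC. It fell by 0.41 on the log2 scale (SE 0.07, edgeR adjusted p = 0.0080).

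**Figure D5:**
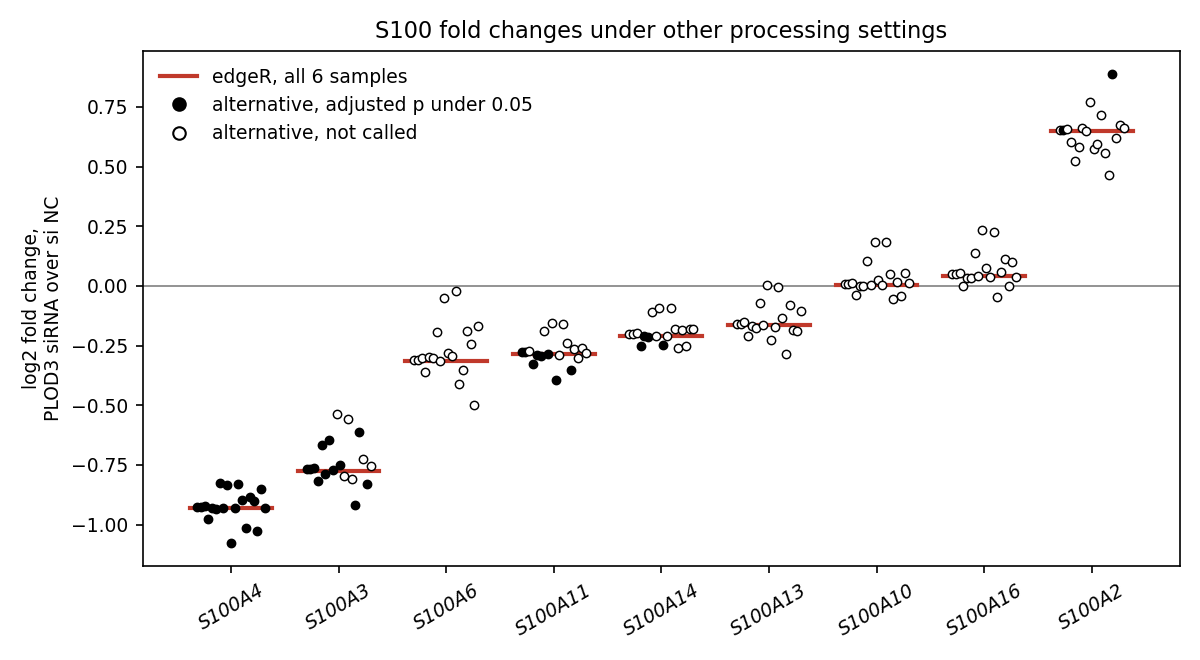
Log2 fold change (PLOD3 siRNA over si NC) of each S100 gene under the main edgeR test (red bar) and under each alternative (points, filled where the adjusted p was under 0.05). S100A4 stays between −1.08 and −0.83 with every point filled, and S100A6, S100A10, S100A13 and S100A16 have no filled point.

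The plot of alternatives sets the S100 genes apart by how far their values moved. S100A6 ranged from −0.50 to −0.02 and S100A2 from 0.47 to 0.89 over their 18 alternatives, and each kept its sign. S100A10 ranged from −0.05 to 0.18, S100A16 from −0.05 to 0.23 and S100A13 from −0.28 to 0.00.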

How the data were processed

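RNA of 6 HCT116 samples, 3 per group, was depleted of ribosomal RNA before library construction, per the labels' protocols. The tools listed in the submitters' processing notes, without roles, are cutadapt 1.9, HISAT2 2.0.4 and StringTie 1.3.4d. The build, the annotation, the strandedness of counting and the origin of the counts are not given in the sources used. The authors deposited 1 table of 60612 genes with an FPKM and an estimated count per sample, per the file headers, and the table's placeholder for a gene without reads was read as 0. Low estimated counts in the deposited table pile up at multiples of 4 (on average 1490 genes at 4, 558 at 3 and 312 at 5), so a read pair was worth about 4 units and the counts overstate depth; edgeR takes the spread from the replicates. By identifier, 96.3% of genes were found in GENCODE release 29, and 99.9% of these sat at the annotated place, hence the table's positions were taken to be GRCh38. Since strandedness is unknown, reads of overlapping genes on opposite strands cannot be told apart.

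A mean of 1 FPKM or more over the 6 samples was required. The groups were compared with edgeR 4.0.16 (R 4.3.3; TMM, trended dispersion, two-sided quasi-likelihood test, adjusted by Benjamini-Hochberg over 12000 genes, threshold 0.05) on the estimated counts, which were already whole, with no covariate. Fold changes are PLOD3 siRNA over si NC, on the log2 scale, and their 95% intervals are not adjusted. Ratios and sums of FPKM were compared by exact permutation in scipy 1.17.1. Alternatives were RLE size factors, DESeq2 1.42.0, other filters, limma 3.58.1 on log2 FPKM or TPM, counts divided by 4, loess offsets (span 0.5) for GC content or GC and length, a replicate block and each sample left out. For S100A4, its counts summed with those of S100A3 were a further alternative, not planned beforehand. The edgeR test was checked on simulated data for 12000 genes. It recovered 32 of 100 genes changed 1.5-fold and 80 of 100 changed 2-fold, and called 3 unchanged genes. No other simulated gene was changed, whereas 2319 genes were called lower and 1945 higher in the data. With fewer genes changed the adjustment asks for a smaller p, so these shares do not give the power in the data. Failing the test does not show that a gene was unchanged. Upstream sequences are RefSeq's.

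The 10 genes and the other lists were chosen with earlier results of these data known. Genes named are PLOD3, the S100 genes with any FPKM above 0.01, the partners described beside the S100 protein that binds them, up to 4 genes per list with the smallest p, and every gene of a count of 5 or fewer. STIP1, SUGT1, MDM2, FGF1, the S100 genes listed at 0 and AGER were named after their values were seen. Squamous markers, also looked at, were summed to 0.861 to 1.32 FPKM in PLOD3 siRNA and 1.18 to 2.16 FPKM in si NC.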

Additional observations from a re-analysis of the deposited data

How the results depend on the processing

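PLOD3, S100A4, MYH9, ANXA6, GATAD2B, SYT1, STIP1, FKBP4, KPNA2, NUCB1 and CETN3 kept their calls under every alternative run. CALB2 and STIM1 kept theirs in the 17 alternatives that tested them. No named call reversed. Genes lower and higher over the whole table (2319 and 1945) became 1354 and 1192 at a minimum mean of 5 FPKM, 1834 and 1471 with a replicate block, and 1210 and 1052 with a replicate block and GC offsets; 1461 were lower on a TPM scale. Leaving out 1 sample in turn gave 1509 to 2011 lower (1530 without PLOD3 siRNA sample 1, 1509 without si NC sample 3) and 1083 to 1651 higher. S100 genes lower (3) became 1, S100A4, with GC offsets, with the replicate block, and with both, and 1 to 3 with a sample left out (1 without PLOD3 siRNA sample 1, si NC sample 1 or si NC sample 3). S100 genes higher (0, or 1 at an unadjusted p under 0.05) became 1, S100A2, with DESeq2, and 0 to 1 with a sample left out. Annexins lower became 2 at a minimum mean of 5 FPKM, and annexins higher (2) became 0 with GC and length offsets, with the replicate block, with the replicate block and GC offsets, and without si NC sample 3. Neighbours higher (0) became 1 with the replicate block, alone or with GC offsets, and without si NC sample 2. Other partners lower (5) became 3 without a filter, on a TPM scale, with GC and length offsets and with the replicate block, and 3 to 6 with a sample left out. Neighbours lower (3) became 1 at a minimum mean of 5 FPKM and with the replicate block and GC offsets, and 1 to 3 with a sample left out. The causes were not tested. Whether the replicate numbers pair the samples is not known. Deviations of same-numbered samples from their group means correlated at 0.0486, −0.0107 and −0.0230, and PLOD3 siRNA sample 2 correlated best with si NC sample 3 (0.0501). Deviations from a mean of 3 samples are tied to each other, so these correlations cannot decide it. With the block the edgeR adjusted p was 0.0528 for S100A3 and 0.0503 for S100A11. Among the calls lost with the block and GC offsets together were those of ERBB2 (0.0600), SUGT1 (0.0604) and AL162258 (0.1009). S100P and S100A1 were below the filter on mean FPKM and were not tested; S100P had at most 12 estimated counts in a sample.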
